A study of Arabidopsis thaliana with 236 samples.

Results

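The comparison described here set 6 arrays of sorted Arabidopsis root pericycle cells against 5 arrays of the same cell type taken at 0 h. The 6 were taken 1 and 2 h after seedlings had been moved to fresh plates of the same nominal nitrate level. Arrays were chosen by sample title, and these 11 came from a series of 236. The 1 h group and the 2 h group had 3 arrays each and were given equal weight. All 11 came from Col0 plants grown for 9 days (the labels also give an age of 12 days) on 0.1 mM KNO3 with 30 mM sucrose at 22 °C, in 16 h of light and 8 h of dark. At dawn the plants of the 1 and 2 h groups went to new 0.1 mM KNO3 plates, called standard in the labels. This amounted to a mock transfer, since the nominal nitrate level was the same. The labels do not give the nitrate left in the old plates. Whole roots were turned into protoplasts, that is, wall-less cells, and cells carrying a green fluorescent protein marker were sorted by fluorescence. The RNA was amplified with a NuGEN whole-transcriptome kit, labelled with Cy3 and hybridised to a custom NimbleGen array.

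Comparison groups from the same series were the pericycle standard arrays at 24 and 48 h (3 each), which are dawn again on the same kind of plate, and the cortex arrays at 0 h (3) and at standard 1 and 2 h (3 each). Pericycle arrays of plants moved at the same dawn to 5 mM KNO3 (3 at 1 h, 4 at 2 h) or put in contact with Sinorhizobium meliloti at an OD600 of 0.8 (4 at each hour) were also used. No arrays of plants left on their old plates at 1 or 2 h were analysed here, so handling, the fresh medium and the first hours of light cannot be told apart. The marker lines behind the 2 sorted cell types are not named in the labels. One sentence of the series text names epidermal cells where another names pericycle.

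The pericycle is the outermost layer of the root's central cylinder, beneath the endodermis; lateral roots begin in it, and its cells help load nutrients into the xylem. The plant circadian clock is a loop of transcription factors in which CCA1, LHY and the REVEILLE proteins peak near dawn, the LNK proteins act with the REVEILLE proteins as co-activators, and PRR9, PRR7 and then TOC1 repress them in turn through the day. Handling seedlings is known to induce touch and cold-response genes quickly, and light on roots to induce flavonoid genes through the regulator HY5.

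Values are log2 intensities as deposited, so that equal steps are equal fold changes, averaged over the rows of a locus. Levels of different genes were not compared, since each has its own probes. No detection calls were used, and the tenth percentile of an array lay at 5.17 to 5.39 at 0 h and 4.87 to 5.02 at 2 h, so levels near 5 may hold little signal. Array pairs within the 0 h group correlated at 0.764 to 0.873 over all loci, within 1 h at 0.847 to 0.881 and within 2 h at 0.944 to 0.956. At 0 h, replicates 1 and 2 stood apart from the rest, with correlations of 0.764 to 0.834 and 0.764 to 0.8, against 0.86 to 0.873 among replicates 3, 4 and 5. The median standard deviation (SD) per locus was 0.82 at 0 h, the fourth highest of the 80 groups of the series, 0.63 at 1 h and 0.38 at 2 h. Nothing in the labels says whether replicates were separate cultures, so p-values measure the spread between arrays only. That spread was pooled over all 80 groups of the series. The 0 h SD of 0.82 is wider than the median of 0.5 over the 77 groups outside the main comparison.

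Of the pericycle and stele markers, TIP2;3, a tonoplast aquaporin, averaged 13.97 at 0 h in these arrays against 10.78 in the cortex arrays. NPF7.3, a nitrate transporter that loads the xylem, averaged 10.16 against 7.80, and the phosphate exporter PHO1 averaged 7.22 against 5.66. HMA4, a zinc pump of the stele, did not separate the 2 cell types at 0 h (7.16 and 7.19). Markers of other root layers, the endodermis and the epidermis, were also high in the pericycle arrays at 0 h. The endodermal genes MYB36, ESB1 and CASP1 averaged 11.62, 13.08 and 12.98, against 6.99, 6.62 and 7.05 in cortex. The root hair genes RSL4, COBL9 and RHD6 averaged 10.60, 11.34 and 11.47, against 5.09, 6.59 and 6.73.

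Across the array, 4025 of 27143 loci differed between 1 to 2 h and 0 h (14.8%; limma, adjusted p below 0.05 by the Benjamini-Hochberg method, over all loci). Of these, 1712 were higher (6.31%) and 2313 lower (8.52%) after transfer. The 6 later arrays lay above all 5 of the 0 h arrays at 457 loci (1.68%) and below all of them at 737 (2.72%), 4.4% in all. Many of the loci that were lower were dim: 988 of them (42.7%) lay in the dimmest 25% by mean level, against 29 (1.7%) of those that were higher. Centring every array on its median moved the median change of all loci by -0.3, to 955 higher and 4243 lower calls, and took the share of calls that were higher from 42.5% to 18.4%. The counts rest on a spread estimated over all 80 groups. Simulated data with the 0 h spread widened to that observed gave more false calls than the adjusted p threshold is meant to allow. Without 0 h replicate 5 or 1 h replicate 3 the lower calls numbered 1485 or 1499. With the spread taken from these 11 arrays alone there were 785 calls, of which 721 were among the 4025. Leaving out 0 h replicates 1 and 2 gave 3995 calls, and 2810 of them were shared.

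Over 30 gene lists, 87 of 469 loci were called (18.6%), 44 higher (9.4%) and 43 lower (9.2%), not far above the shares of all loci, and lists with 1 or 2 calls add little to that background. The fit was repeated 11 times, each time without 1 array, and 62 of the 126 called genes named here passed in all 11; for most others the number of repeats that lost the call is given.

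**Figure D1:**
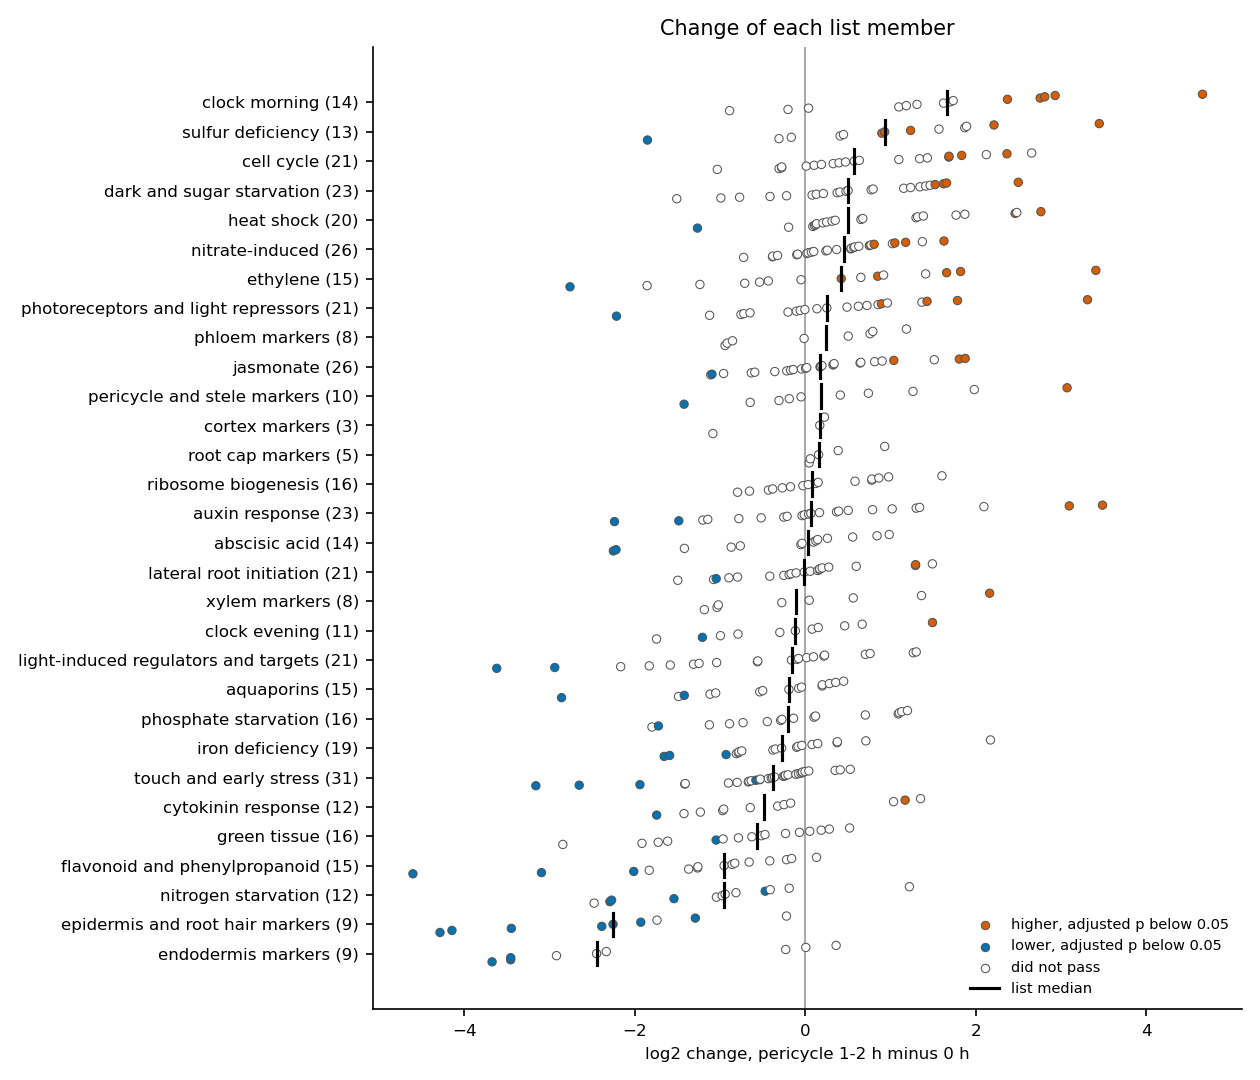
Each circle is 1 gene of 1 of the 30 gene lists (number of members in parentheses), placed on the horizontal axis by its log2 change from 0 h to 1 to 2 h in pericycle; vertical bars are list medians. Orange and blue circles passed the test as higher or lower. Morning clock genes have the highest median, 1.66, and endodermis (-2.45) and root hair markers (-2.26) the lowest.

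Morning clock genes were among those that rose after transfer. Of 14 in the list, 5 rose (6.31% of all loci did), none fell, and the median change was 1.66, beside -0.065 for all loci. The steepest was LNK4, which read 8.16, 8.86, 6.01, 5.98 and 6.41 at 0 h. At 1 h it read 11.11, 11.22 and 12.75 and at 2 h 12.32, 10.65 and 12.43. All 6 later arrays lay above all 5 early ones, a change of 4.66 ± 0.98 (SE; limma, adjusted p = 0.000369).

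The dawn-phased transcription factor RVE1, which ties the clock to auxin, rose by 2.93 ± 0.74 (limma, adjusted p = 0.003). Its 0 h arrays read 6.48, 12.13, 7.87, 7.10 and 6.90, and its later arrays 9.72 to 12.04. The groups overlapped through 0 h replicate 2 alone, which lay far above the other 4. LNK3 rose by 2.81, with 0 h arrays from 6.68 to 12.57 (again highest in replicate 2) and later arrays from 11.52 to 12.39. The repressor PRR7 rose by 2.76, from 6.10 to 12.35 at 0 h to 9.42 to 13.08 later, and RVE7 by 2.37. LNK3 (2.17) and PRR7 (2.05) did not pass without 0 h replicate 4, nor PRR7 (2.23) and RVE7 (2.01) without replicate 5, nor PRR7 (2.4) without 1 h replicate 3.

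The core pair CCA1 and LHY did not pass (1.62 and 1.74, adjusted p = 0.19 and 0.094). Both were scattered at 0 h, CCA1 from 6.11 to 12.04 and LHY from 5.65 to 12.87, with replicate 1 lowest and replicate 2 highest in each. Leaving out replicate 1 took the changes to 0.74 and 0.78, and leaving out replicate 2 to 2.22 and 2.58, LHY then passing the test. By 1 to 2 h the 2 genes had narrowed to 10.24 to 12.12 and 10.71 to 11.90. The mean of the 14 morning genes ranged from 8.9 to 11.78 over the 0 h arrays, from 10.88 to 11.57 at 1 h and from 11.07 to 11.78 at 2 h. Without 0 h replicates 1 and 2, 7 of the 14 rose. With the 11 arrays alone 1 did.

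The plates gave 2 later dawns in pericycle. At 24 and 48 h LNK4 averaged 11.69 and 12.00, RVE1 11.04 and 11.14, and LNK3 11.93 and 12.77. The morning list as a whole differed by a median of -0.12 between 1 to 2 h and those dawns, with 0 of 14 members passing the test (background 0.276%, and 1842 loci at an unadjusted p below 0.05). In cortex, LNK4 read 11.25 to 12.15 at 0 h already and 10.19 to 12.61 after transfer, a change of -0.21. The median change of the morning list there was -0.1 with no member called (background 0.962%). The difference between the cell types was 1.63 in the list median, and no morning gene passed the test of that difference (background 1.67%), LNK4 coming closest with an adjusted p of 0.0664.

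Among 11 evening clock genes, 1 rose and 1 fell, beside 6.31% of all loci higher and 8.52% lower. TOC1, the evening repressor of CCA1 and LHY, fell by 1.21 ± 0.38, from 10.44 to 13.26 at 0 h to 9.27 to 11.49, with overlap. Without 0 h replicate 2 its change was -0.78 and without 1 h replicate 2 it was -0.94, and neither passed; the call was lost in 3 of 11 repeats. GI, a stabiliser of clock proteins, rose by 1.49 ± 0.51, with 0 h replicate 3 at 6.66 and the other 0 h arrays at 8.84 to 11.90, against 10.70 to 11.36 later. Without 0 h replicate 3 the change of GI was 0.78 and did not pass. Its call was lost in 5 of 11 repeats, with array medians centred (1.19), with pericycle arrays only and with the 11 arrays alone.

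**Figure D2:**
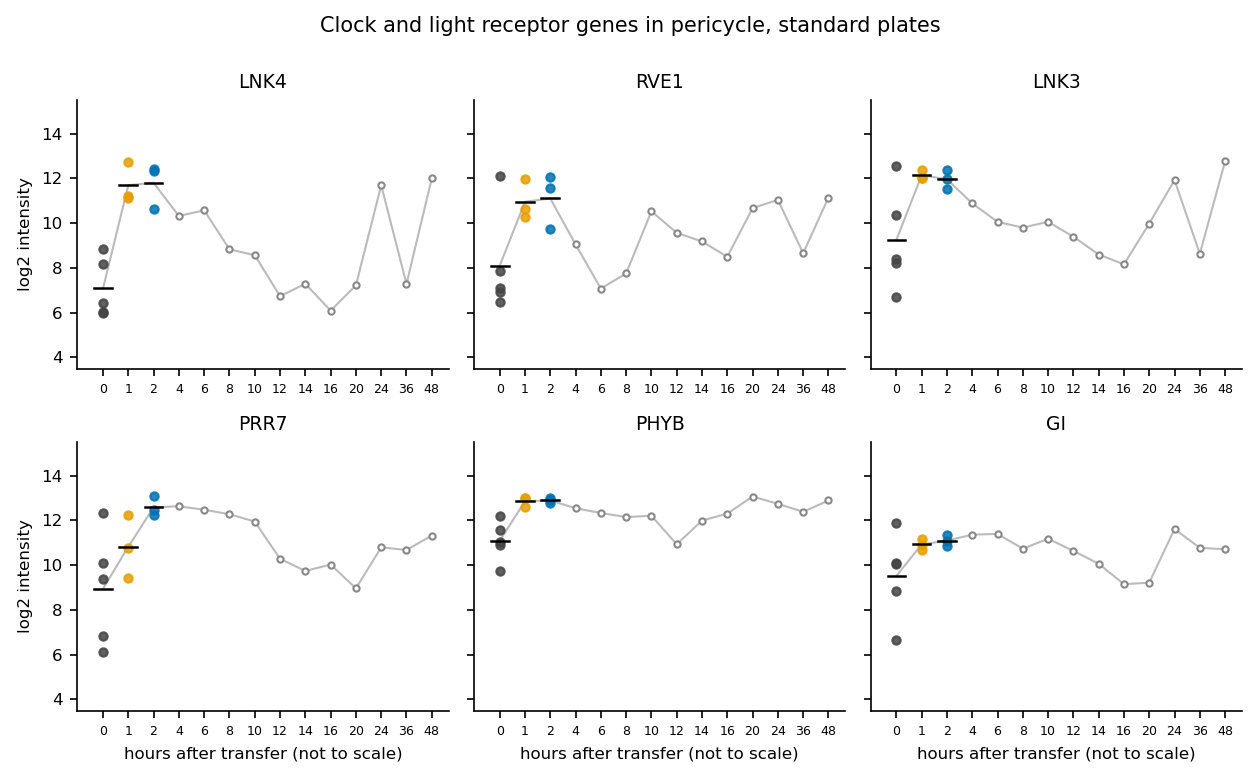
Log2 intensity (vertical axis) of 5 clock genes and the light receptor PHYB by hours after transfer on standard plates (horizontal axis, not to scale). Filled points are single arrays at 0 (grey), 1 (orange) and 2 h (blue), black bars their means, and open points joined by the line group means at later hours. LNK4 stands near 12 at 1 to 2 h and again at the 24 and 48 h dawns, and its 0 h arrays lie below 9.

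Genes for light receptors and repressors of light signalling had 4 risers and 1 faller among 21, beside 6.31% of all loci higher. PHYB, a red light receptor, read 11.56, 12.18, 10.92, 11.03 and 9.75 at 0 h. It read 13.00, 12.58 and 12.99 at 1 h and 13.00, 12.90 and 12.77 at 2 h, all above the early arrays. The rise of 1.79 ± 0.32 passed the test (limma, adjusted p = 3.38e-05). In cortex PHYB changed by -0.50, from 12.86 to 13.05 at 0 h to 11.89 to 12.73, which did not pass, and the 2 responses differed by 2.29 (limma, adjusted p = 0.00605).

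PHYA, the far-red light receptor, rose by 0.89 with no overlap, from 12.15 to 12.65 up to 12.96 to 13.62. PHYE rose by 1.43 and the blue light receptor PHOT1 by 3.31, both with overlap. PHYE did not pass without 0 h replicate 5 (0.91). PHOT1 was scattered, with 0 h arrays at 6.00, 6.55, 11.52, 6.35 and 7.97 and the second array of 2 h at 7.38. RUP2, which switches off the UV-B receptor, fell by 2.21 ± 0.47, from 8.49 to 10.02 down to 5.80 to 8.35, without overlap.

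Of 21 regulators and targets known to be induced by light, 0 rose and 2 fell, beside 6.31% of all loci higher and 8.52% lower. HY5, the central light-response factor, read 10.77 to 13.68 at 0 h and 11.93 to 12.90 later (0.23, adjusted p = 0.70). The shade-response regulator HFR1 fell by 3.62 ± 1.2 and the B-box protein BBX31 by 2.94 ± 0.90, both dim in 0 h replicate 1 and overlapping. The calls were lost in 8 and 3 of 11 repeats.

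Of 15 flavonoid and phenylpropanoid genes 3 fell and none rose, beside 8.52% of all loci lower, and the median change was -0.95. TT7, the flavonoid 3'-hydroxylase, read 13.29, 8.49, 13.60, 13.78 and 13.80 at 0 h. It read 8.01, 9.94 and 6.75 at 1 h and 7.57, 8.74 and 6.91 at 2 h. Only 0 h replicate 2 lay in the range of the later arrays, and the gene fell by 4.61 ± 1.12 (limma, adjusted p = 0.00198).

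PAL1, which opens the phenylpropanoid pathway, fell by 2.01 ± 0.53, from 14.01 to 14.68 down to 10.89 to 13.37 with no overlap. TT5, the chalcone isomerase, fell by 3.1, a call lost in 4 of 11 repeats. The chalcone synthase gene CHS went from 13.20 to 14.99 to 11.64 to 13.98, a change of -1.83 that did not pass (adjusted p = 0.084). F3H changed by -0.95 without passing, although its 6 later arrays (12.89 to 13.96) all lay below the 5 at 0 h (14.24 to 14.46). With array medians centred 8 of the 15 fell, beside 4243 of all 27143 loci lower in that fit.

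Against the 24 and 48 h dawns the flavonoid list had a median difference of -0.47, and no member passed. TT7 averaged 6.72 at 6 h and 11.85 at 12 h on the same plates. In cortex the list median was -0.1, and TT7 had a change of 1.19 there. The difference between cell types was not called for TT7 (adjusted p = 0.0528).

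Of 9 markers of epidermis and root hairs 7 fell and none rose, beside 8.52% of all loci lower, and the median change was -2.26. COBL9, needed for oriented root hair growth, read 11.97, 10.42, 10.77, 12.03 and 11.49 at 0 h. At 1 h it read 6.99, 9.11 and 7.45 and at 2 h 5.11, 5.97 and 8.52. The groups did not overlap, and COBL9 fell by 4.15 ± 0.84 (limma, adjusted p = 0.000221). RSL4, the transcription factor that sets root hair length, fell by 4.29 ± 0.79 from 11.07, 12.58, 7.06, 11.60 and 10.71 to values of 5.22 to 8.45, 0 h replicate 3 being the low one.

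RHD6, which starts root hair formation, fell by 2.26, the expansins EXPA7 and EXPA18 by 3.45 and 1.93, and PRP3, a cell wall protein of root hairs, by 2.39. GL2, which marks the non-hair cells, fell by 1.29, or changed by -0.76 without 0 h replicate 3, which did not pass. The calls of RHD6 and GL2 were lost in 6 of 11 repeats each, that of EXPA18 in 7 and that of PRP3 in 1. LRX1 (-1.74, adjusted p = 0.080) and WER (-0.22, adjusted p = 0.92) did not pass. The mean of the 9 genes lay at 8.13 to 10.12 over the 0 h arrays, 7.0 to 7.63 at 1 h and 6.24 to 7.37 at 2 h, so that the lists' array means did not overlap. Of the 9, 4 fell without 0 h replicates 1 and 2, 8 with array medians centred and 2 with the 11 arrays alone. With centring 4243 of all 27143 loci were lower.

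A further 18 root hair growth genes were looked at after these values had been seen, and 6 of them fell, beside 8.52% of all loci. Of the 18, 10 fell with array medians centred, 2 with the 11 arrays alone and 1 with pericycle arrays only. The kinase gene RHS10, RHS13, RHS19, the transcription factor RSL2, the wall protein PRP1 and the cellulose synthase-like CSLD3 fell by 0.66 to 3.72, and each lost its call in 1 to 3 of the 11 repeats. PRP2, a wall protein of the same family named by its size of change, fell by 4.26 from 8.22 to 11.74 to 4.96 to 7.55, with no overlap. Of 7 genes of epidermal patterning, also added then, TRY fell by 1.46, a call lost in 7.

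In cortex RSL4 read 4.82 to 5.41 at 0 h and 5.01 to 5.72 after transfer, and COBL9 6.04 to 6.96 and 6.24 to 7.3. The cortex level of RSL4 was thus at the dim end of the scale, where a fall could hardly be seen. The responses of the 2 cell types differed for RSL4 by -4.52, for EXPA7 by -3.61 and for PRP2 by -5.14 (limma, adjusted p = 0.0296, 0.047 and 0.026). These calls were lost in 2, 8 and 1 of 11 repeats. Against the dawns of 24 and 48 h the root hair list stood at a median of -1.25 with no member passing. COBL9 read 8.30 to 10.83 at 24 h and 8.83 to 11.65 at 48 h, between its 0 h and its 1 to 2 h levels.

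Some endodermal markers fell as well. Of 9, 3 fell and none rose, beside 8.52% of all loci lower, with a median of -2.45. The number that fell was 5 without 0 h replicates 1 and 2, 4 with array medians centred, 1 with pericycle arrays only, and none passed with the 11 arrays alone (limma). With centring 4243 of all 27143 loci were lower. MYB36, the master regulator of the Casparian strip, fell by 3.46 ± 1.12, from 9.63, 11.55, 11.96, 12.57 and 12.38 to 6.33, 6.00 and 9.78 at 1 h and 5.50, 11.62 and 9.74 at 2 h. Replicate 3 of 1 h and replicates 2 and 3 of 2 h thus lay within the 0 h range, which replicate 1 widened downwards. ESB1, which is needed to build the strip, fell by 3.68 and CASP5, one of its scaffold proteins, fell by 3.46. The calls of MYB36 and ESB1 were lost in 4 and 7 of 11 repeats.

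CASP1 changed by -2.33 without passing (adjusted p = 0.21), and its 0 h replicate 1 read 7.88 where the other 4 read 13.78 to 14.88. The list mean ran from 7.47 to 11.88 over the 0 h arrays, from 7.58 to 8.36 at 1 h and from 7.13 to 10.3 at 2 h, and overlapped. Pericycle and stele markers had 1 riser and 1 faller among 10 (HMA4 by 3.07, and TIP2;3, which fell by 1.42), and their array means ran from 8.32 to 10.28, from 9.44 to 9.9 and from 9.29 to 11.23. Of the 3 cortex markers, 8 phloem markers and 5 root cap markers none passed; the cell wall synthase CESA4 rose by 2.17 among 8 xylem markers. TIP2;3 lost its call in 8 of 11 repeats and CESA4 in 7. Fewer cells of another type among those sorted and less of their RNA per cell cannot be told apart in these bulk samples. The part of such cells in the other changes was not tested.

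**Figure D3:**
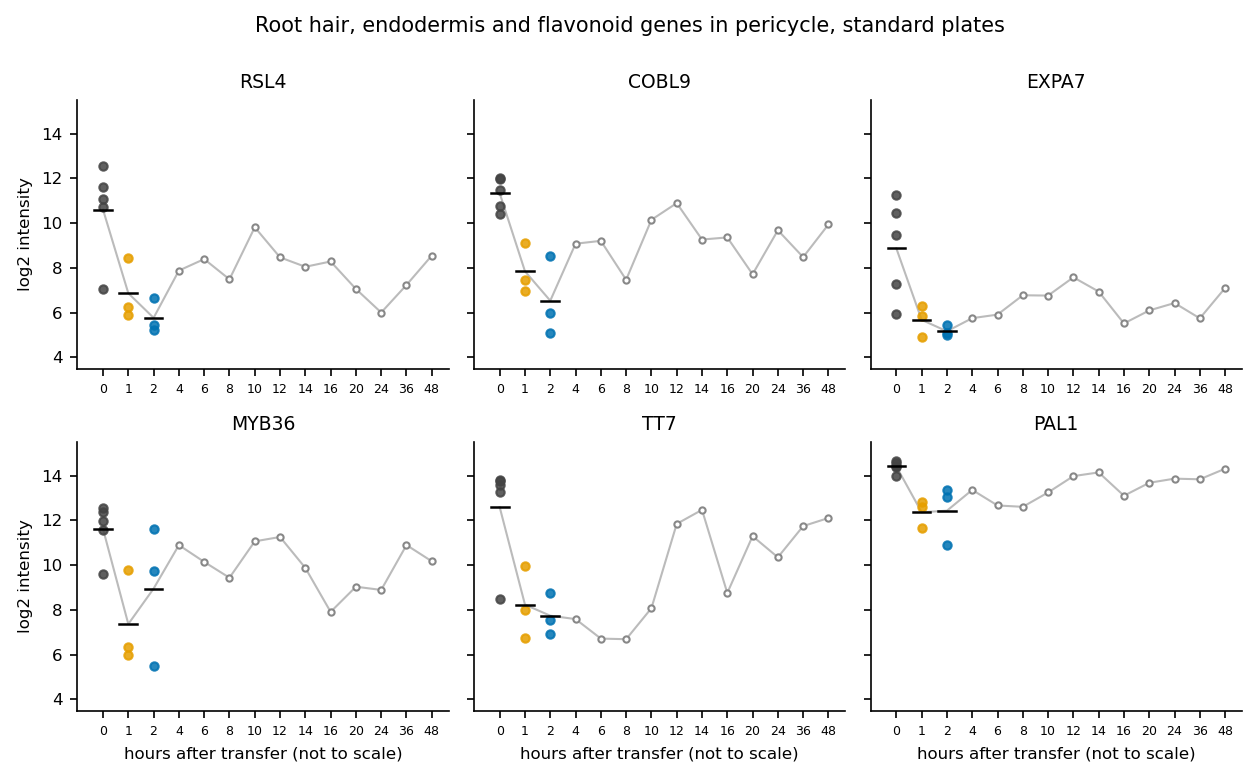
Log2 intensity (vertical axis) of 3 root hair genes, the endodermal MYB36 and 2 phenylpropanoid genes by hours after transfer on standard plates (horizontal axis, not to scale). Filled points are single arrays at 0 (grey), 1 (orange) and 2 h (blue), black bars their means, and open points joined by the line later group means. COBL9 and PAL1 show no overlap between 0 h and 1 to 2 h; TT7 has 1 low array at 0 h, and MYB36 keeps 1 high array at 2 h.

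Of 31 touch and early stress genes none rose and 4 fell, a count not far above the 8.52% of all loci that were lower. CBF2, a master switch of the cold response, read 11.90, 11.42, 12.50, 12.22 and 12.05 at 0 h. It read 9.53, 7.25 and 8.27 at 1 h and 9.96, 7.78 and 10.36 at 2 h, all below. CBF2 fell by 3.16 ± 0.74 (limma, adjusted p = 0.0013). Its neighbour CBF1 fell by 2.65, the ethylene-response factor ERF5 by 1.94 and the zinc finger gene ZAT10 by 0.58 (lost in 7 of 11 repeats). The calmodulin-like TCH3, a classic touch gene, read 14.18 to 14.50 at 0 h and 14.04 to 14.75 later (-0.08, adjusted p = 0.82). Centring the array medians raised the number that fell to 10 of 31, while the number over all 27143 loci went from 2313 to 4243. For ZAT10 the cortex moved the other way, by 0.57, and the difference of -1.15 passed (limma, adjusted p = 0.044). That call was lost in 7 of 11 repeats.

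Of 26 jasmonate genes 3 rose and 1 fell, a share near that of all loci. AOC4 rose by 1.88, the lipoxygenase LOX6 by 1.81 and the repressor JAZ6 by 1.04, and the allene oxide synthase AOS fell by 1.09, and all 4 overlapped. AOS lost its call in 7 of 11 repeats, JAZ6 in 2 and LOX6 in 1. Among 20 heat shock genes, the chaperone HSP90.1 rose by 2.46 and the co-chaperone ROF2 by 2.77, and HSFB2A fell by 1.26 (lost in 3 of 11 repeats). HSP90.1 did not pass without 0 h replicate 5 (1.67). The mean of that list spread from 9.78 to 13.17 over the 0 h arrays, against 11.27 to 11.78 at 1 h and 11.17 to 12.48 at 2 h, and for HSP90.1 the 0 h arrays themselves ran from 7.86 to 14.55.

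Sulfur genes moved in both directions. Of 13 sulfur deficiency genes 5 rose and 1 fell, beside 6.31% of all loci higher and 8.52% lower, and the list median was 0.93. With array medians centred 3 rose and 1 fell, and with the 11 arrays alone none rose and 1 fell. LSU2, a small protein made under sulfur shortage, rose by 3.45 ± 0.85 from 12.90, 10.88, 8.23, 5.63 and 7.29 to 10.95 to 13.39, overlapping through 0 h replicate 1. The sulfate-reducing enzymes APR2 and APR3 rose by 0.90 and 0.93. APR2 had no overlap (12.92 to 14.00, then 14.24 to 14.86), and APR3 overlapped through 0 h replicate 2. SHM7 rose by 1.24 and AT1G04770 by 2.22. Without 0 h replicate 5 SHM7 changed by 0.39 and did not pass, and 3 other repeats lost its call.

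The root sulfate importer SULTR1;1 went against these. It read 6.14, 7.62, 7.03, 7.18 and 7.37 at 0 h, 5.58, 5.71 and 4.98 at 1 h and 4.84, 4.99 and 5.19 at 2 h. Every later array was below every early one, at the dim end of the scale, and it fell by 1.85 ± 0.34 (limma, adjusted p = 4.48e-05). HMT3, a homocysteine methyltransferase that makes methionine, was added after its values were seen. It rose by 3.95 ± 0.78 from 6.08 to 6.91 to 10.32 to 13.10 at 1 h and 8.26 to 9.52 at 2 h, with no overlap. In cortex the sulfur list had a median change of 0.1, and neither LSU2 (0.10) nor APR2 (0.22) differed there; for neither gene was the difference between the cell types called (adjusted p = 0.16 and 0.22).

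The nitrate-induced list had 5 of 26 members higher (6.31% of all loci were) and none lower, with a median of 0.45. The plates had the same nominal nitrate level as before. With array medians centred 2 were higher and 1 lower, and with the 11 arrays alone none passed. UPM1, which makes the sirohaem of nitrite reductase, rose by 1.18 ± 0.24 with no overlap; its 0 h arrays read 13.18, 10.98, 13.14, 13.04 and 13.04 and the later ones 13.36 to 14.17. The nitrite reductase NIR1 rose by 0.75, the transcription factors TGA1 and TGA4 by 1.63 and 1.05 and the kinase CIPK23, which acts on a nitrate transporter, by 0.81. For NIR1, TGA1, TGA4 and UPM1 the lowest 0 h array was replicate 2. Without it UPM1 passed at 0.76, and NIR1 (0.46), TGA1 (0.74) and TGA4 (0.56) did not pass. CIPK23, NIR1 and TGA4 each lost their call in 6 of 11 repeats. Without 0 h replicates 1 and 2 only 2 of the 26 rose. In cortex 6 of the 26 rose (0.711% of all loci did), with a median of 1.2.

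Against the 24 and 48 h dawns 5 of the 26 were higher at 1 to 2 h (0.114% of all loci were), with a list median of 0.75. HB1, a haemoglobin that removes nitric oxide, differed most, by 6.06 ± 0.82: it averaged 7.05 at 24 h and 6.47 at 48 h, and read 11.17 to 14.14 at 1 to 2 h. It was as high before transfer, at 11.66, 8.27, 13.11, 13.29 and 12.68, and its change from 0 h was 1.02 (adjusted p = 0.45). RFNR2, a root ferredoxin reductase, was 2.11 higher than at the later dawns, the nitrate transporter NPF6.3 2.07, G6PD3 1.53 and UPM1 0.91. Without 2 h replicate 1, NPF6.3, G6PD3 and UPM1 did not pass. Of the 6 repeats without a 1 or 2 h array, 5, 3 and 4 lost these calls.

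Of 12 nitrogen starvation genes 4 fell (8.52% of all loci did) and none rose, with a median of -0.96. With array medians centred 6 fell (4243 of all 27143 loci did), and with the 11 arrays alone 1 did. The ammonium transporter AMT1;5 read 8.61, 8.02, 8.11, 8.83 and 10.42 at 0 h and 5.84 to 7.45 later, without overlap, and fell by 2.27 ± 0.49. A second ammonium transporter, AMT1;2, fell by 1.54 (without 0 h replicate 1 its change was -1.06 and did not pass), the glutamate dehydrogenase GDH3 by 2.29 and the glutamine synthetase GLN1;1 by 0.47. GDH3 also differed by -3.07 from the later dawns.

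Genes of carbon shortage had risers and no fallers. Of 23 members of the dark and sugar starvation list 4 rose and none fell (median 0.5), beside 6.31% of all loci higher. With array medians centred 3 rose and 1 fell, and with the 11 arrays alone none passed. IVD, an enzyme of leucine breakdown, read 12.56, 12.31, 5.82, 11.72 and 11.92 at 0 h and 12.57 to 13.98 later. All later arrays were higher and the rise was 2.5 ± 0.38. That SE rests on the spread over all 80 groups and is narrower than these 0 h arrays would give. Replicate 3 at 0 h lay far below the others. Without that array the change of IVD was 1.24 and still passed. ASN1, the asparagine synthetase induced in the dark, rose by 1.62, the dark-inducible DIN10 by 1.66 and the transcription factor BZIP63 by 1.52. ASN1 (0.76) did not pass without 0 h replicate 1, nor DIN10 (1.33) without replicate 5, and BZIP63 lost its call in 7 of 11 repeats. BCE2, a subunit of the complex that breaks down branched-chain amino acids, was named by its size: it rose by 5.03 ± 0.78 from 8.33, 5.63, 6.58, 10.09 and 5.73 to 11.69 to 13.04, with no overlap (limma, adjusted p = 1.9e-06). Without 0 h replicates 1 and 2, 2 of the list rose and 2 fell.

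The trehalose phosphatase gene TPPI, chosen after its values were seen, fell by 2.72 ± 0.52. Its 0 h arrays read 9.85, 12.38, 11.69, 10.41 and 11.41 and its later arrays 7.24 to 9.66. It averaged 11.71 and 11.56 at the 24 and 48 h dawns. The vacuolar fructose transporter SWEET17 rose by 5.06 ± 1.00. At 0 h 4 arrays read 5.30 to 5.58 and replicate 1 read 10.51, within the later range of 10.51 to 12.53.

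**Figure D4:**
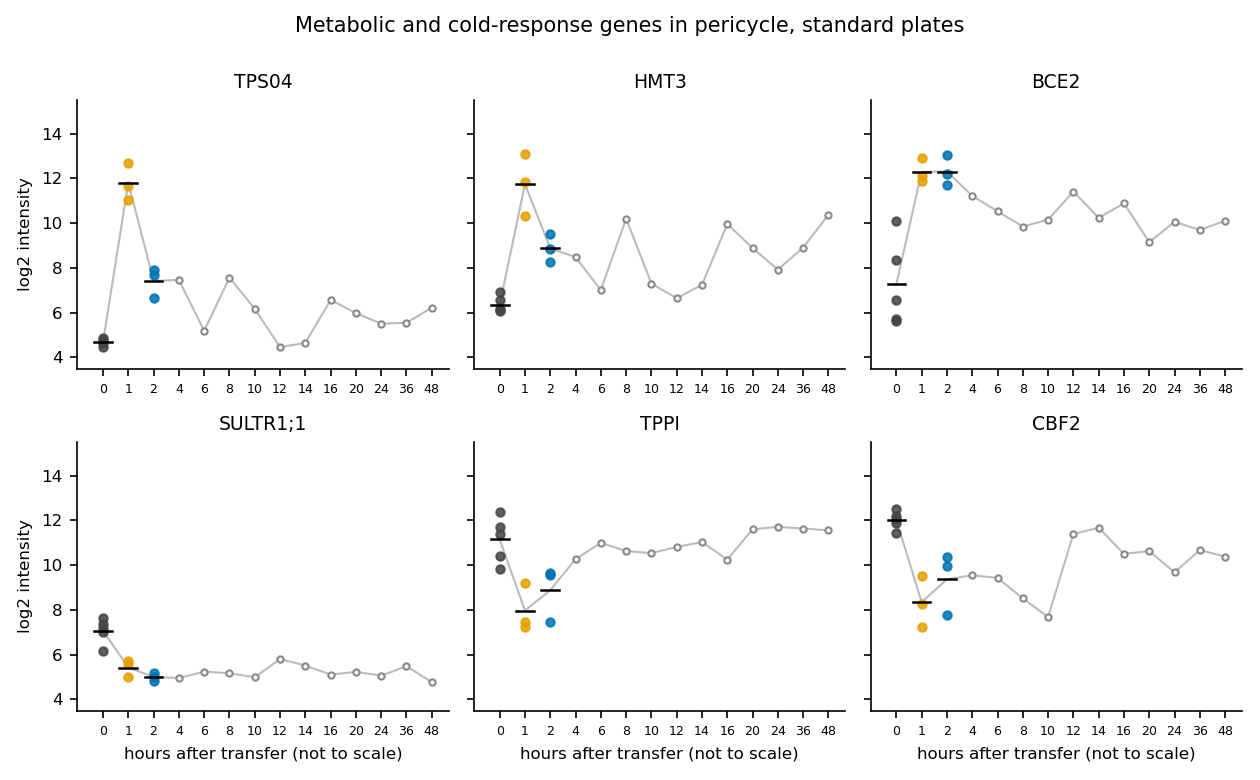
Log2 intensity (vertical axis) of 6 genes of terpene, methionine, branched-chain amino acid, sulfate and trehalose metabolism and of the cold response by hours after transfer on standard plates (horizontal axis, not to scale). Filled points are single arrays at 0 (grey), 1 (orange) and 2 h (blue), black bars their means, and open points joined by the line later group means. TPS04 stands above 11 at 1 h and at 6.64 to 7.90 at 2 h; the 6 genes show no overlap between 0 h and 1 to 2 h.

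Hormone lists were mixed. Over all loci 6.31% were higher and 8.52% lower, and lists with 1 or 2 calls add little to that. Of 23 auxin response genes 2 rose and 2 fell: the conjugating enzyme GH3.3 by 3.1 and the repressor IAA5 by 3.49 upwards, GH3.1 by 2.24 and the ethylene-making ACS4 by 1.48 downwards, all with overlap. GH3.1 lost its call in 4 of 11 repeats, IAA5 in 2, and GH3.3 and ACS4 in 1 each. IAA2 did not change in pericycle beyond its spread (0.04) and rose by 2.02 in cortex, a difference of -1.98 (limma, adjusted p = 0.0050). Of 15 ethylene genes 5 rose (6.31% of all loci did) and 1 fell. With array medians centred 1 rose and 3 fell, and with the 11 arrays alone none rose and 1 fell. EBF2, which marks the ethylene factor EIN3 for breakdown, rose by 1.82 with no overlap (8.61 to 13.23, then 13.28 to 13.75; replicate 5 the low one), the receptors ERS1 and ERS2 rose by 0.85 and 3.41, EIN3 by 0.42 and the ACC oxidase ACO4 by 1.66, while ACS7 fell by 2.76. Not passing were EBF2 without 0 h replicate 5 (1.05), ERS1 without replicate 3 (0.56) and EIN3 without replicate 2 (0.27). ERS1 and ACO4 lost their calls in 7 of 11 repeats, EIN3 in 6, EBF2 and ACS7 in 4 and ERS2 in 1.

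Among 12 cytokinin genes ARR8, a response inhibitor, rose by 1.17 and CYP735A1, an enzyme that makes trans-zeatin, fell by 1.74. ARR8 did not pass without 0 h replicate 2 (0.69) and in 4 other repeats. Of 14 abscisic acid genes RAB18 and COR15A fell, by 2.25 and 2.22, and both overlapped, beside 8.52% of all loci lower. The list of lateral root initiation had 1 riser, PLT3 (1.30), and 1 faller, PUCHI (by 1.04), among 21. RAB18 lost its call in 6 of 11 repeats, COR15A in 3, PLT3 in 5 and PUCHI in 8. LBD16, which starts lateral roots, read 7.35 to 12.97 at 0 h and 7.09 to 10.69 later (0.28, adjusted p = 0.90).

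Among 21 cell cycle genes 4 were higher (6.31% of all loci were), none was lower and the median was 0.58. With array medians centred, however, none of the 4 passed. They were the DNA clamp genes PCNA1 (2.37) and PCNA2 (1.69), the replication helicase MCM5 (1.69) and E2FA (1.84), all overlapping. PCNA2 did not pass without 0 h replicate 2 (1.07). The calls of PCNA1 and MCM5 were lost in 7 of 11 repeats, that of E2FA in 8 and that of PCNA2 in 4. CYCB1;1, a marker of division, read 5.98 to 9.54 at 0 h and 7.3 to 8.51 later (0.58, adjusted p = 0.61).

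Of 15 aquaporins 2 fell and none rose, beside 8.52% of all loci lower. TIP2;2, a water channel of the vacuole, fell by 2.86 ± 0.67 from 12.18 to 13.84 to 8.08 to 11.36, and TIP1;2 by 1.42 from 14.23 to 15.02 to 12.47 to 14.16, both without overlap. Iron deficiency genes had 3 falls in 19, beside 8.52% of all loci lower. They were by 0.93 (IRT1, the iron importer), 1.59 (AT1G47395) and 1.66 (AT1G47400). SQD2 fell by 1.72 among 16 phosphate starvation genes and PORC by 1.05 among 16 genes of green tissue. IRT1 and AT1G47395 lost their calls in 6 of 11 repeats, SQD2 in 7 and PORC in 2. None of 16 ribosome biogenesis genes passed.

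Among the 15 largest rises in all was TPS04, the geranyllinalool synthase that makes the precursor of a volatile defence terpene. It read 4.46, 4.66, 4.78, 4.70 and 4.86 at 0 h, 12.71, 11.03 and 11.68 at 1 h and 7.70, 7.90 and 6.64 at 2 h. The change over both hours was 4.92 ± 0.79 (limma, adjusted p = 3.52e-06), and all 6 later arrays were above. As its 0 h levels lay below the tenth percentile of the 0 h arrays (5.17 to 5.39), the size of that change is uncertain. Cortex rose as well, by 5.13, from 4.42 to 10.62 at 0 h to 8.88 to 13.09. TPS04 was also 3.75 above the 24 and 48 h dawns (limma, adjusted p = 0.0045).

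Most other large rises carry only a locus identifier in the annotation used. AT3G09950 rose most, by 6.09 ± 1.19, from 5.82 to 8.18 to 10.54 to 14.32. AT4G15990, AT5G44065, AT2G43530 and AT1G35625 rose by 5.43 to 5.90, and AT4G13160, AT2G26370, AT4G22212, AT4G21865, AT2G18970 and AT4G33800 by 4.46 to 4.91. AT1G35625, AT4G33800, and SWEET17 overlapped with 0 h and the other 12 did not.

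The largest fall was at AT5G09570, by 5.79 ± 1.08, from 8.60 to 13.72 to 5.07 to 6.21. AT5G17820 fell by 4.96 ± 0.85 from a narrow 11.20 to 12.47 to 5.27 to 8.64 (limma, adjusted p = 1.41e-05). AT2G45220, a pectin methylesterase, fell by 4.06 and the copper protein gene UCC1 by 4.08 (lost in 4 of 11 repeats), while AT3G09925, AT4G04750, AT4G22217, AT4G05150, AT4G26010, AT3G28170 and AT2G47540 fell by 3.93 to 4.96. Of the 15 largest falls 7 had no overlap, beside 2.72% of all loci and 23.1% of those called lower. These 15 were picked by size of change in the same arrays.

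Loci singled out after their values were seen included GASA1, a gibberellin-regulated small peptide gene, which fell by 1.43 from a tight 14.96 to 15.28 to 11.46 to 14.40, and KCS6, which elongates wax fatty acids and fell by 2.46 from 7.35 to 9.16 to 4.99 to 6.23. AT4G26450, a WPP domain interacting protein gene, had the lowest adjusted p of the genes named, with a rise of 3.83 ± 0.44, from 6.69 to 10.93 to 11.68 to 12.73 (limma, adjusted p = 8.28e-11).

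Taken hour by hour, 1259 loci differed at 1 h (4.64%; 687 higher and 572 lower) and 3950 at 2 h (14.6%; 1289 higher and 2661 lower). Both hours were set against the same 0 h arrays. The 1 h count was 601 without 1 h replicate 1, 739 without replicate 2, 697 without replicate 3 and 803 without 0 h replicate 5, and the 2 h count was 1608 or 1611 without 2 h replicates 1 or 3. The 2 h group itself differed from the 1 h group at 13 loci (0.0479%), with 2654 at an unadjusted p below 0.05. Without 1 h replicate 3 this count was 385, without 1 h replicate 1 or 2 h replicate 1 it was 2, without 2 h replicate 2 it was 3 and without 2 h replicate 3 it was 0.

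Of the 13, 5 were described after their values were seen. AT1G19530 read 5.06 to 5.43 at 0 h and 5.20, 5.22 and 5.06 at 1 h, then 9.25, 9.15 and 10.46 at 2 h, a difference of 4.46 ± 0.97 between the hours (limma, adjusted p = 0.036). AT4G10265 was also higher at 2 h (6.95, 7.3 and 9.41, against 5.47 to 5.96 at 1 h). AT5G51440 dipped at 1 h, to 10.04 to 11.99, between 12.36 to 14.09 at 0 h and 13.21 to 14.06 at 2 h. MRN1, the marneral synthase, read 6.18 to 9.51 at 0 h, 12.42, 10.14 and 11.85 at 1 h and 9.22, 5.39 and 7.03 at 2 h. BZO1, an acyl-activating enzyme that makes benzoyl glucosinolates in seeds, read 8.62, 6.83 and 11.46 at 1 h and 5.51 to 6.07 at 2 h, a difference of -3.24. The difference was -2.0 for BZO1 without 1 h replicate 1 and 1.47 for AT4G10265 without 2 h replicate 3, and neither passed. Of the 6 repeats without a 1 or 2 h array, 5 lost the call of AT1G19530 and 5 that of AT5G51440. BZO1 lost its call in 4, and AT4G10265 and MRN1 in 3 each.

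The same transfer gave 261 calls in cortex, 193 higher and 68 lower, from 3 arrays at 0 h and 6 later. The responses of the cell types differed at 453 loci, 243 of them more positive in pericycle. Without 0 h replicate 1 the count was 1079, without 0 h replicate 5 it was 260, and without 2 h replicates 1 or 3 it was 290 or 296. AT4G26450, which rose in pericycle, read 11.66 to 12.49 in cortex at 0 h and 11.37 to 12.57 after transfer, and AT4G13160 10.95 to 11.59 and 9.58 to 11.53, the differences in response being 4.01 and 5.27 (limma, adjusted p = 0.000159 and 0.00217). IVD (2.38) and PHOT1 (5.25) passed in the same direction; without 0 h replicate 3 the difference for IVD was 1.12 and did not pass. In the other direction AT4G22217 differed by -7.26, AT5G17820 by -5.09, CASP5 by -4.15 and AMT1;5 by -2.57. G6PD3, a plastid enzyme that supplies reducing power for nitrite reduction, rose by 2.58 in cortex and changed by 0.63 in pericycle, a difference of -1.96 (adjusted p = 0.039). Without 0 h replicate 5 the differences of EXPA7, CASP5, PRP2, AMT1;5, ZAT10 and G6PD3 did not pass. Without 2 h replicate 1 those of PHOT1, RSL4 and AT5G17820 did not. Of 11 repeats, 8 lost the difference of EXPA7, 7 that of AMT1;5, 7 that of ZAT10 and 5 that of G6PD3. RSL4 lost it in 2, and CASP5, PRP2, PHOT1, IVD and AT5G17820 in 1 each.

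**Figure D5:**
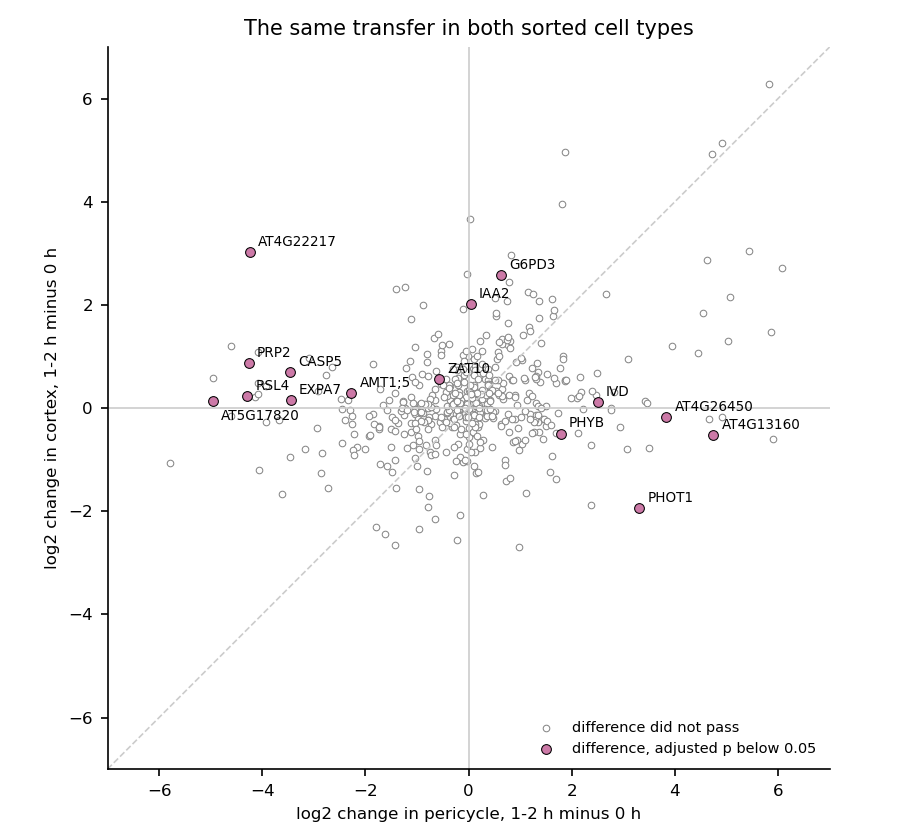
Log2 change from 0 h to 1 to 2 h in pericycle (horizontal axis) and cortex (vertical axis) for 507 loci, those of the 30 lists and the other named genes; the dashed line marks equal change. The 15 named points passed the test of the difference between the cell types. The root hair genes RSL4 and EXPA7 lie low in pericycle and near 0 in cortex. The level of RSL4 in cortex was at the dim end of the scale, where a fall could hardly be seen.

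Against the 24 and 48 h dawns, arrays that do not enter the 0 h mean, the 1 to 2 h pericycle differed at 75 loci, 31 higher and 44 lower. The count was 26 without 2 h replicate 1 or 3, and 42 or 44 without 1 h replicate 1 or 2. Besides the nitrate-induced genes and TPS04 above, the storage protein gene VSP2 was 2.5 higher and the indole glucosinolate enzyme CYP83B1 1.95 higher. AAE12 was 3.7, MRN1 3.21, BZO1 2.09 and AT4G10265 1.51 higher. TPPI (-3.21), MGD3, which makes galactolipids under phosphate shortage (-3.27), KCS6 (-2.46), the clock gene ELF4 (-1.59) and GASA1 (-1.23) were lower. Without 2 h replicate 1 GASA1 (-0.79), ELF4, BZO1 and MRN1 did not pass, and without 2 h replicate 3 VSP2, KCS6 and AT4G10265 did not. In all, 4 of 6 repeats lost the call of ELF4, 3 that of BZO1 and 2 that of VSP2. CYP83B1, AAE12, MRN1, BZO1, AT4G10265, TPPI, KCS6 and GASA1 were picked from these calls after their values were seen.

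The 5 mM KNO3 and S. meliloti arrays of 1 and 2 h, set against the same 0 h arrays, gave 458 calls (1.69%) and 559 calls (2.06%). As they share that 0 h group, values are given side by side only. The first count was 781 without 0 h replicate 1 and 717 without 0 h replicate 4. LNK4 changed by 4.66 on standard plates, 2.21 with 5 mM KNO3 and 2.65 with S. meliloti. COBL9 changed by -4.15, -2.53 and -2.11, CBF2 by -3.16, -1.46 and -1.52, PAL1 by -2.01, -0.38 and -0.59, and AT5G44065 by 5.86, 6.01 and 6.73.

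Standard arrays of 1 to 2 h were also set against the mean of the other 2 treatments directly, and 1397 loci differed (5.15%; 581 higher, 816 lower). PRP2 was lower on standard plates (-3.58), as were TT7 (-2.83), PAL1 (-1.52), TIP2;2 (-2.41) and SULTR1;1 (-1.0). TPS04 (2.67), HMT3 (2.29), ROF2 (1.92) and PHYB (0.81) were higher. This count was 367 without 2 h replicate 1, 894 without 1 h replicate 2, 388 without 1 h replicate 3 and 412 without 2 h replicate 3.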

How the data were processed

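RMA was used to make the deposited log2 intensities (per the submitters' processing notes), 31524 rows by 236 arrays with values from 3.69 to 15.53; the RMA software is not given in the sources used here. No scanner files were used, so probe quality was not examined. Rows of a locus were averaged to 27143 loci, and no further scaling was applied. RefSeq (TAIR10.1) gave the symbols, and other loci keep their identifier. With limma 3.58.1 (R 4.3.3), 1 mean per group was fitted for 80 groups over 235 arrays (1 near-identical pair averaged), and variances were moderated by eBayes (prior df of 3.04, 155 residual df). P-values were adjusted by the Benjamini-Hochberg method. Errors are SE. The text names the 15 largest rises and falls whose 1 and 2 h means lay on the same side of 0 h, list members, and loci said to be chosen after their values were seen. The members and lists were chosen with earlier results of these data known. Tested on simulated data for the main comparison (27143 loci), the fit recovered 11.3, 51.6 and 92.3% of shifts sized 1, 2 and 4 (log2) and made 6 false calls. With the wider 0 h spread it recovered 15.5, 48.4 and 95.4% and made 46 false calls. Only 200 loci were changed in the simulation (71, 64 and 65 of sizes 1, 2 and 4). With the wider spread the false calls were thus a larger share of all calls than the adjusted p threshold is meant to allow. Alternatives were centring, quantile scaling, the arrays behind the spread, the summary of rows, a filter, the prior, array weights, the heat shock list's mean level per array as a covariate, blocks and left-out arrays.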

Additional observations from a re-analysis of the deposited data

Results flagged for a closer look

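Among the 133 genes named for the main comparison, 19 had 1 array at 0 h far from the other 4, its gap exceeding 0.71 of the group's range. Chance alone flags about 1 in 20 groups of independent normal values. The 133 genes share the same 5 arrays and 126 of them were called, so that rate is no fair measure here. The share over all loci was not computed. The far array was replicate 1 in 9 genes, replicate 2 in 3, replicate 3 in 3, replicate 4 in 1 and replicate 5 in 3. Replicate 1 was the low one for HFR1 (0.788 of the range), TRY (0.723), ESB1 (0.783), AOS (0.821), ASN1 (0.775), AT4G26010 (0.875) and UCC1 (0.781), and the high one for SWEET17 (0.947) and AT2G43530 (0.795). Replicate 2 was high for RVE1 (0.754) and low for TT7 (0.903) and UPM1 (0.934). Replicate 3 was low for IVD (0.876) and high for E2FA (0.789) and AAE12 (0.865). Replicate 4 was high for AT2G18970 (0.773). Replicate 5 was low for SHM7 (0.836) and EBF2 (0.734) and high for AT3G09950 (0.856).

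The 2 and 1 h groups differed by test for AT1G19530 (4.46), AT4G10265 (2.23), AT5G51440 (2.46), BZO1 (-3.24) and MRN1 (-4.26), in log2 units. The response of pericycle minus that of cortex, also tested, was 4.01 for AT4G26450, 2.29 for PHYB, 5.25 for PHOT1, 2.38 for IVD and 5.27 for AT4G13160. It was -4.52 for RSL4, -3.61 for EXPA7, -4.15 for CASP5, -5.09 for AT5G17820, -5.14 for PRP2, -7.26 for AT4G22217, -2.57 for AMT1;5, -1.15 for ZAT10, -1.98 for IAA2 and -1.96 for G6PD3.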

How the results depend on the processing

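Of 126 named genes called in the main comparison, none changed direction under any alternative, and 38 passed under every one that gave them a value, among them LNK4, PHYB, COBL9, RSL4, TT7, PAL1, CBF2, TPS04, BCE2, HMT3, TPPI, SULTR1;1 and AMT1;5. With pericycle arrays only, the 11 arrays alone, the filter or the changed prior, group means stayed the same, so direction could not change. With the 11 arrays alone 42 passed, with pericycle arrays only 78, with array medians centred 107, with quantile scaling 114 and with each array's mean of the heat shock list as a covariate 96, and 62 passed whichever single array was left out. Among those that did not pass with that covariate were PRR7 (1.91), GI (1.36), HFR1 (-2.84), MYB36 (-3.04), ESB1 (-2.91), TT5 (-2.52) and RHD6 (-1.92), and the main count was 3441. The main count of 4025 was 2431 (912 higher, 1519 lower) with pericycle arrays only, 785 (269 higher, 516 lower) with the 11 arrays alone and 2594 (1014 lower) without the dimmest 25% of loci, and centring gave 955 higher and 4243 lower. Leaving out single arrays gave 2730 to 4884 calls, 1228 to 2037 higher and 1485 to 2847 lower. Without 0 h replicates 1 and 2, an alternative chosen after seeing the data, it was 3995, and without 1 h replicate 1 as well 4143.

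The 1 h count of 1259 was 266 with pericycle arrays only, 30 with the 11 arrays and 583 with array weights (601 to 1855 leaving out single arrays). The 2 h count of 3950 was 5984 with centring, 2457 with pericycle arrays only, 811 with the 11 arrays and 1983 without the dimmest 25% (1608 to 4866). The 13 loci that differed between the hours were 6 with centring, 2 with pericycle arrays only, 2 with the 11 arrays, 0 without the dimmest 25%, 135 with array weights and 1 without 0 h replicates 1 and 2 and 1 h replicate 1 (0 to 385). Array weights took the cortex count from 261 to 465.

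The count of differing cell type responses, 453, was 1036 with array weights, 1098 without 0 h replicates 1 and 2 and 1224 without 1 h replicate 1 too (260 to 1079). The later dawns gave 24 with pericycle arrays only and 617 with array weights (26 to 77). The nitrogen count was 67 and 205 under those settings (313 to 781), the rhizobium count 109 and 94 (413 to 751), and the count against the treated arms 97 and 2229, or 833 without the dimmest 25% (367 to 1344). The causes were not tested.

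Replicate numbers did not pair the arrays: residuals of same-numbered arrays correlated at -0.188 to 0.08 (median -0.016 over 9 pairs) and those of different numbers at -0.201 to 0.16 (median -0.009 over 30). With the replicate number as a block, 1 of the 9 endodermal markers fell (list median -1.21), the main count was 2783, the 1 h count 749 and the count of differing cell type responses 257.

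Limits: 3 to 5 arrays per group, wide spread at 0 h, no detection calls and no slide or batch labels, so batch and hour cannot be told apart.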
